A study of Mus musculus with 6 samples.

Results

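The transcription factors that pattern the lung airway and keep its epithelial cells in their lineages were followed in mouse airway epithelial cells treated with TGF-β1. The 10 genes were taken by name and fall into 4 groups: the lung and foregut factors Nkx2-1, Sox2, Foxa1 and Foxa2, the bud and basal cell factors Sox9 and Trp63, the epithelium-specific ETS factors Elf3 and Ehf, and the Krüppel-like factors Klf4 and Klf5. These are 10 of the 22910 genes that the arrays name through RefSeq transcripts, and 16 probes report them, with 4 for Ehf, 2 each for Nkx2-1, Sox9 and Trp63, and 1 for each of the others. All 16 probes were well above background on all 6 arrays, so no member was lost to a filter.

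The cells, called 2D-MAOs, were lung airway epithelial cells of C57BL/6 mice, expanded as organoids and replated as a flat layer. Both groups were kept in a medium without noggin, an inhibitor of BMP proteins, and without A83-01, an inhibitor of TGF-β receptors. From day 3, 3 cultures received TGF-β1 at a dose that the microarray methods do not name, and 3 control cultures did not. Total RNA was collected on day 7 and labelled with 1 dye, and each culture was read on 1 array, where a brighter spot means more RNA caught by its probe. The study calls the 3 cultures of a group biological replicates, and the sources used here do not say whether they came from different animals. Cells were not sorted, so fewer cells of a type and less RNA per cell cannot be told apart in these values.

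Nkx2-1 is a homeodomain protein that marks the lung part of the foregut from its origin, and Foxa1 and Foxa2 are forkhead proteins that open chromatin in endoderm. In the growing lung Sox2 marks the proximal airways and Sox9 the distal tips, while Trp63 (p63) marks basal cells, the stem cells of the large airways. Elf3, Ehf, Klf4 and Klf5 act in epithelial cells as they differentiate or form a barrier, and TGF-β1 acts through SMAD proteins that bind DNA beside other factors.

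Promoter windows of the RefSeq assembly GRCm38.p6, running from 250 bases before to 50 bases after a transcript start, were at hand for 6 of the 10 genes: Nkx2-1, Sox2, Foxa1, Foxa2, Elf3 and Klf4. The windows of 3 genes are shown up to the start site, 5′ to 3′ on the strand of the gene: Elf3, which had the largest difference downwards, and Nkx2-1 and Foxa1, which were among those with the smallest differences under quantile normalization. Capitals mark matches to 1 of 7 short motifs searched on both strands.
Elf3, chr1:135258473-135258722, minus strand: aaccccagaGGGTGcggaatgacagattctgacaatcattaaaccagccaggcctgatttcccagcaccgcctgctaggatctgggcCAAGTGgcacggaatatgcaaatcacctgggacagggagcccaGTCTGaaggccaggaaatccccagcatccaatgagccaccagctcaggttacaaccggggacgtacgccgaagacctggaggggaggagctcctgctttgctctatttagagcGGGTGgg
Nkx2-1, chr12:56536909-56537158, minus strand: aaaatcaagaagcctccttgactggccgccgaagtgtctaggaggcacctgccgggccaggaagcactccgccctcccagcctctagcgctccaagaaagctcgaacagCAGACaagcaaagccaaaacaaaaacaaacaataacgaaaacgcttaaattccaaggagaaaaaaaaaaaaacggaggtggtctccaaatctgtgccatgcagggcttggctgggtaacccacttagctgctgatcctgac
Foxa1, chr12:57546112-57546361, minus strand: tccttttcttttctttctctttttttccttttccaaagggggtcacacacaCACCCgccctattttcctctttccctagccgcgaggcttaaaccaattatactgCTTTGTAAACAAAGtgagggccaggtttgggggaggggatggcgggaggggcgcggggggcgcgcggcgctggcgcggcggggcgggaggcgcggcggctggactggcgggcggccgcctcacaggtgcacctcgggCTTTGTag

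The Elf3 window held the SMAD motif CAGAC at 1 place, the KLF motif CACCC at 2 and the NKX motif CAAGTG at 1, with first bases 120 bases before the start for the SMAD motif, 241 and 7 for the KLF motif and 163 for the NKX motif. The Nkx2-1 window held CAGAC alone, 141 bases before the start. The Foxa1 window held CACCC at 1 place, the FOXA motif TGTTTAC at 1 and the SOX motif ACAAAG at 4 places. The FOXA match overlapped a SOX match on each side, and the last SOX match lies past the start site, outside the stretch shown. Of all 32851 windows of this length, 49.6% held CAGAC, 57.5% CACCC, 13.6% CAAGTG, 18.7% ACAAAG and 3.65% TGTTTAC. The AP-1 motif TGANTCA, found in 7.81% of windows, was in no window of the 6 genes, and the ETS motif GGAAGT, found in 23.8%, was only in a Foxa2 window, at 2 places. A match describes the letters of these windows and is no evidence of binding.

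With TGF-β1, Sox9 and 1 of the Trp63 probes rose, Elf3 had the largest difference downwards without passing the test, and the brightest probes of the remaining genes differed by no more than −0.32 on the log2 scale under quantile normalization. After normalization by quantiles, 3 of the 10 genes were higher and 7 lower. Their log2 fold changes (TGF-β1 minus control) had a median of −0.10, against −0.03 over all 14345 genes tested, of which 45.8% were higher. Scaling by the 75th percentile in place of quantiles gave 2 higher and 8 lower, with a median of −0.29 for the members and −0.09 for all genes, and leaving out TGF-β1 replicate 3 gave medians of −0.17 and −0.04. In the limma fit over all genes, Sox9 passed the adjusted threshold of 0.05 as higher (1 of 10, where 1.63% of all genes were called higher), and no member was called lower (0.404% of all genes). Unadjusted limma p-values lay under 0.05 for 3 members (Sox9, Elf3 and Klf5), and this was so for 22.2% of all genes. The 3 treated arrays lay wholly above the 3 control arrays for Sox9 and Trp63, and wholly below for Elf3, Ehf and Klf5. Of all genes, 12.9% had groups that did not overlap upwards and 13.5% downwards. With 3 arrays against 3, the two-sided exact permutation test of a single gene cannot go below 0.1, and all of these 5 genes had that value. The median standard deviation between replicates was 0.18 for the members in the control group and 0.20 in the TGF-β1 group, on the log2 scale, against 0.16 and 0.17 over all genes.

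**Figure D1:**
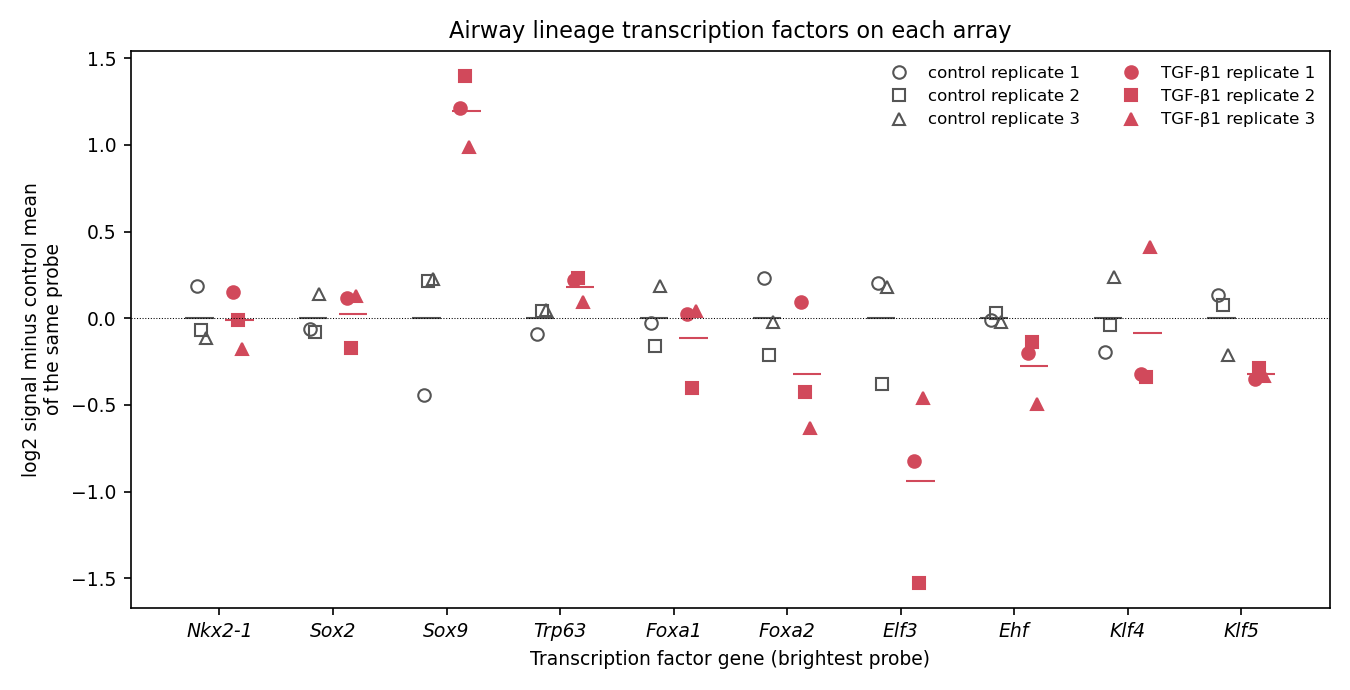
Log2 signal on each of the 6 arrays minus the control mean of the same probe (y axis, log2 units) for the brightest probe of the 10 genes (x axis). Open grey symbols are the 3 control arrays, filled red symbols the 3 TGF-β1 arrays and short lines the group means, with Sox9 wholly above and Elf3, Ehf and Klf5 wholly below their controls.

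TGF-β1 replicate 3 stood apart from the other arrays. Over all genes, its distance to the other TGF-β1 arrays was 61.1 to 62.3 log2 units and that to the controls 54.4 to 60.9, while TGF-β1 replicates 1 and 2 were 32.3 apart. All arrays lay on 1 slide, and replicate 3 of each group lay in the other slide row. Between 55.0% and 59.0% of probes were well above background on an array. Without TGF-β1 replicate 3, 9.08% of all genes were called higher and 6.27% lower, and of the members Sox9 was called higher and Elf3 lower.

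The lung and foregut factors had overlapping groups, and the values of Nkx2-1, Sox2 and Foxa1 depended on the scaling of the arrays. Nkx2-1 had log2 signals of 13.63, 13.38 and 13.33 in control replicates 1 to 3 and of 13.60, 13.44 and 13.27 with TGF-β1. The groups overlapped almost fully, and the difference was −0.01 (SE 0.14, limma adjusted p = 0.965), with a 95% interval from 0.79 to 1.24 in fold. A second, dimmer Nkx2-1 probe read 8.83, 8.89 and 8.44 in the controls and 8.68, 8.71 and 8.34 with TGF-β1, a difference of −0.14 (limma adjusted p = 0.610). Sox2 read 12.57, 12.55 and 12.78 in the controls and 12.75, 12.46 and 12.76 with TGF-β1. Its groups also overlapped, with a difference of 0.03 (SE 0.13, limma adjusted p = 0.922) and an interval from 0.82 to 1.26 in fold. The Sox2 value had no stable sign, since scaling by the 75th percentile gave −0.13, and the same scaling gave −0.20 for the brighter Nkx2-1 probe (limma adjusted p = 0.362).

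Foxa1 was read at 14.93, 14.80 and 15.15 in the controls and at 14.98, 14.56 and 15.01 with TGF-β1, again with overlapping groups. The difference was −0.11 (SE 0.16, limma adjusted p = 0.703). Scaling by the 75th percentile gave −0.38 (limma adjusted p = 0.229) and normexp background −0.18. Foxa2 ran from 9.67 to 10.11 in the controls and from 9.25 to 9.98 with TGF-β1, with its lowest value in TGF-β1 replicate 3. Its difference was −0.32 (SE 0.21, 95% interval −0.83 to 0.19, limma adjusted p = 0.394), and it was −0.16 without that array and −0.53 without TGF-β1 replicate 1. On each array the Foxa2 value minus the Foxa1 value ran from −5.29 to −4.82 in the controls and from −5.76 to −5.01 with TGF-β1, a shift of −0.21 (SE 0.27) whose exact permutation p was 0.7. The intervals given leave room for differences within those bounds, so equal levels are not shown.

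Genes that Nkx2-1 and the Foxa factors are known to drive in lung cells were on the array as a list of 15, and 10 of them were tested. Of these, 4 were higher and 6 lower, around a median log2 fold change of −0.03, or −0.14 when scaled by the 75th percentile, and none was called with all arrays. The other 5, Sftpa1, Sftpb, Sftpc, Napsa and Slc34a2, which belong to alveolar type 2 cells, were well above background on no array. Scgb1a1, the main secretory protein of club cells, had the lowest value of the list. It read 10.83, 10.18 and 7.77 in the controls and 7.00, 7.57 and 7.42 with TGF-β1, a difference of −2.27 (SE 0.73, limma adjusted p = 0.158). Control replicate 3 was close to the treated arrays, and the other controls were far above them. Scgb3a2, a related secretoglobin, lay at the other end of the list: 8.64, 9.46 and 9.05 in the controls and 10.55, 10.08 and 9.66 with TGF-β1, a difference of 1.05 (SE 0.28, limma adjusted p = 0.117), which was called without TGF-β1 replicate 3 (1.27, limma adjusted p = 0.0330).

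Sox9 rose. Its brighter probe read 7.10, 7.75 and 7.77 in the controls and 8.75, 8.94 and 8.52 with TGF-β1. Every treated array was above every control array, and the difference was 1.20 (SE 0.21, 95% interval 0.69 to 1.71), or 2.30-fold, with a limma adjusted p of 0.0468. The spot was dim, at 5.25 to 7.29 times its local background in the controls and 10.9 to 16.8 times with TGF-β1. A second Sox9 probe read 6.40, 6.34 and 6.74 in the controls and 7.43, 7.50 and 7.05 with TGF-β1, a difference of 0.84 (SE 0.17), with a limma adjusted p of 0.0658 in the fit over all 32460 probes. Both probes were thus wholly higher with TGF-β1, and the first alone passed the threshold. The adjusted p of the first was 0.0864, 0.111 and 0.0626 without control replicates 1, 2 and 3, and 0.178, 0.168 and 0.0220 without TGF-β1 replicates 1, 2 and 3, so the call was lost without any array but the last. Within slide row 1 the difference was 1.42, and between the 2 arrays of row 2 it was 0.76. The call was also lost with the slide row as a block (limma adjusted p = 0.0587) and with the replicate number as a block (limma adjusted p = 0.0936).

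Sox2 and Sox9 mark opposite ends of the developing airway tree, and their values were set side by side on each array. Sox9 minus Sox2 was −5.47, −4.80 and −5.01 in the controls and −4.00, −3.52 and −4.24 with TGF-β1. The shift of 1.17 (SE 0.29) separated the groups, with an exact permutation p of 0.1 and an adjusted value of 0.35 over the 7 pairs of probes or genes compared. Of 18 other SOX genes, 11 were tested: 9 were higher and 2 lower, with a median of 0.47. Among them 5 had groups that did not overlap, all upwards, against 12.9% of all genes upwards. None was called with all arrays. Without TGF-β1 replicate 3, 3 were called higher, against 9.08% of all genes. Scaling by the 75th percentile gave a median of 0.30, and normexp background gave 0.20, with 8 higher and 3 lower. Sox7 was not called (limma adjusted p = 0.0567), and its fold is a bound of at least 1.51. It was well above background on 0 control and 3 TGF-β1 arrays, so it passed the filter only through the treated group. Sox7 is among the SOX genes counted above as higher, as not overlapping and as called without TGF-β1 replicate 3. Sox11 had the largest difference among those detected on all arrays, 1.29 (SE 0.45, limma adjusted p = 0.176), and its control values ran from 10.03 to 11.88, up into the range of the treated arrays. Sox1 was at the other end, at −0.44 (SE 0.20, limma adjusted p = 0.254).

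Sox9 also drives cartilage genes, and 11 of these formed a list, of which 5 could be tested. Of the 5, 3 were higher and 2 lower. Comp, a cartilage matrix protein, was called lower (at least 2.00-fold, limma adjusted p = 0.0405). It was well above background on 3 control and 0 TGF-β1 arrays, so it passed the filter only through the controls, which favours a lower value. With detection required on all 6 arrays, 0 cartilage genes were called. Col2a1, the main cartilage collagen, read 4.11, 4.35 and 4.24 in the controls and 6.39, 6.20 and 4.88 with TGF-β1. The difference was 1.59 (SE 0.38, limma adjusted p = 0.0935), and it passed without TGF-β1 replicate 3 (2.06, limma adjusted p = 0.00212). Col2a1 was well above background on 1 of the 3 control arrays, so the size of its difference is uncertain. Col9a1, Acan, Hapln1 and Matn3 were well above background on no array. Of 8 fibroblast markers, 4 were tested and had higher means with TGF-β1. Col1a1 (at least 2.16-fold) and Col1a2 (at least 2.38-fold) were called. Both were well above background on 0 control and 3 TGF-β1 arrays, so they passed the filter only through the treated group, which favours a higher value. Dcn (1.00, limma adjusted p = 0.273) and Pdgfra (0.21, limma adjusted p = 0.484) were not called. The log2 of the summed signal of all 8 was 9.12 to 9.31 in the controls and 9.42 to 11.2 with TGF-β1. Dcn was the brightest marker tested, with 11.10, 9.68 and 8.98 in TGF-β1 replicates 1 to 3 and a control mean of 8.92. Col3a1, Pdgfrb, Lum and Tcf21, which also define fibroblasts, were well above background on no array. The part of fibroblast RNA in the Sox9 value was not tested.

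Trp63 gave 2 answers, depending on the probe. The brighter probe, listed under transcript NM_001127261, read 11.65, 11.78 and 11.79 in the controls and 11.96, 11.97 and 11.83 with TGF-β1. The groups did not overlap, though TGF-β1 replicate 3 was only 0.05 above the highest control, and the difference was 0.18 (SE 0.10, 95% interval −0.07 to 0.43, limma adjusted p = 0.332). The other probe, listed under NM_011641, read 8.89, 8.96 and 9.29 in the controls and 10.45, 9.97 and 10.10 with TGF-β1. It rose by 1.13 (SE 0.18, 95% interval 0.71 to 1.54), or 2.18-fold, with a limma adjusted p of 0.0313 over all probes, of which 1.25% were called higher. Scaling by the 75th percentile left 1.11 for this probe and 0.04 for the brighter one.

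Since both probes were read on the same arrays, their difference could be compared within each array. The second minus the first was −2.76, −2.82 and −2.50 in the controls and −1.51, −2.002 and −1.73 with TGF-β1. All treated values were higher, and the shift was 0.95 (SE 0.17), with an exact permutation p of 0.1, the smallest possible, and 0.35 adjusted over the 7 pairs. For Nkx2-1 and Sox9, the probe pairs shifted by −0.13 and −0.36 and their groups overlapped. Trp63 is known to make several transcripts from separate promoters and with different ends. Which of them each probe binds was not worked out, because the probes' own sequences were not used here. The call of the second probe was lost without control replicate 1 or 2 (limma adjusted p = 0.121 and 0.115) and without TGF-β1 replicate 1 or 2 (0.126 and 0.0872), and held without either replicate 3 (0.0404 and 0.0194).

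**Figure D2:**
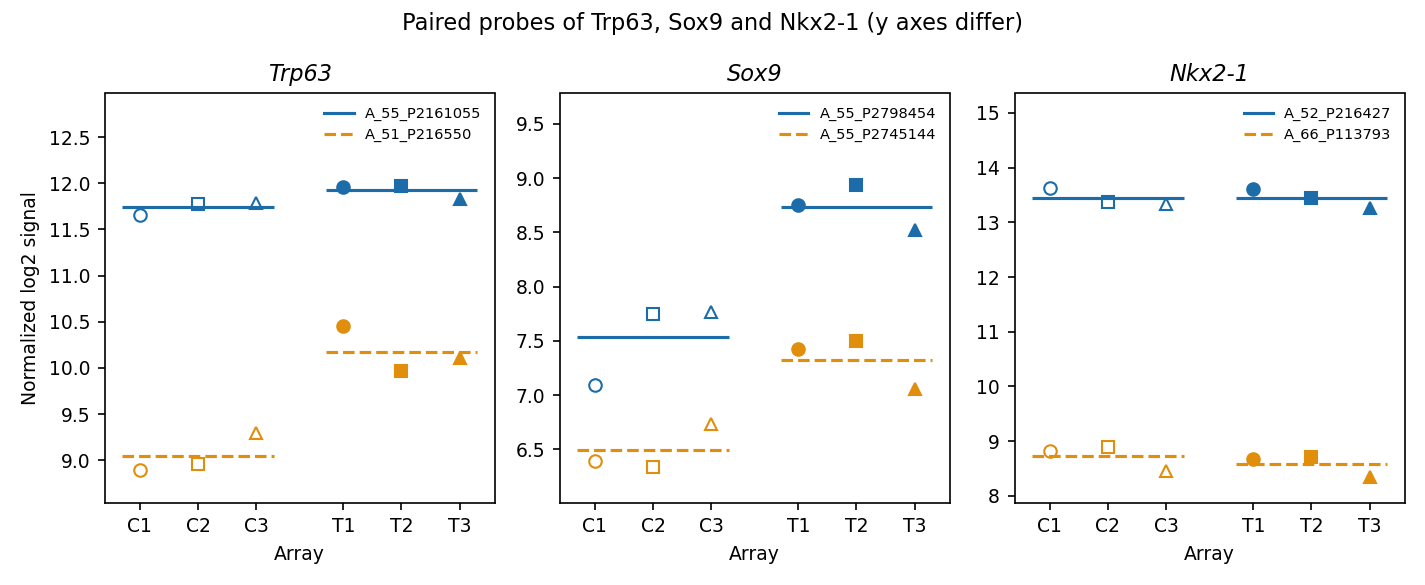
Normalized log2 signal (y axis, a separate range in each panel) of both probes of Trp63, Sox9 and Nkx2-1 on the 3 control arrays (C1 to C3, open symbols) and the 3 TGF-β1 arrays (T1 to T3, filled symbols), with lines at the group means. In Trp63 the dimmer probe is 1.13 higher with TGF-β1 and the brighter one 0.18, whereas both Sox9 probes are higher and the groups of both Nkx2-1 probes overlap.

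Basal cell genes linked to Trp63 were mostly higher. All 20 genes of the list were tested and well above background on all 6 arrays, 18 were higher and 2 lower, and the median log2 fold change was 0.81, which scaling by the 75th percentile lowered to 0.64. Among them 3 were called higher and none lower: Sfn, which encodes 14-3-3 sigma, by 1.23 (SE 0.12, limma adjusted p = 0.00741), Dst, the hemidesmosome plakin dystonin, by 1.14 (SE 0.21, limma adjusted p = 0.0484), and Krt17, a basal keratin, by 1.06 (SE 0.19, limma adjusted p = 0.0472). Sfn read 15.62, 15.88 and 15.59 in the controls and 16.89, 16.98 and 16.91 with TGF-β1, so its groups lay well apart. Of all genes, 1.63% were called higher. Of the 20, 11 had groups that did not overlap, all upwards, against 12.9% of all genes upwards. Without TGF-β1 replicate 3, 15 were called higher and none lower, against 9.08% and 6.27% of all genes, and the median was 1.05.

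The ends of the list differed between arrays. Col17a1, a hemidesmosome collagen, had the largest difference: 7.54, 8.02 and 9.15 in the controls and 11.65, 10.55 and 8.89 with TGF-β1, that is 2.13 (SE 0.72, limma adjusted p = 0.167) with all arrays and 2.86 without TGF-β1 replicate 3 (limma adjusted p = 0.0241). Krt15, another basal keratin, read 14.14, 14.43 and 13.98 in the controls and 14.07, 13.81 and 11.49 with TGF-β1, a difference of −1.06 (SE 0.64, limma adjusted p = 0.353) that was −0.24 without replicate 3. That array was lowest for Krt15 by far, and it was the lowest of the treated arrays for 17 of the 20 genes. The 6 general basal markers (Krt5, Krt14, Krt15, Ngfr, Pdpn and Dapl1) had 5 higher and 1 lower, with none called, and the log2 of their summed signal was 17.1 to 17.2 in the controls and 17.1 to 17.9 with TGF-β1.

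**Figure D3:**
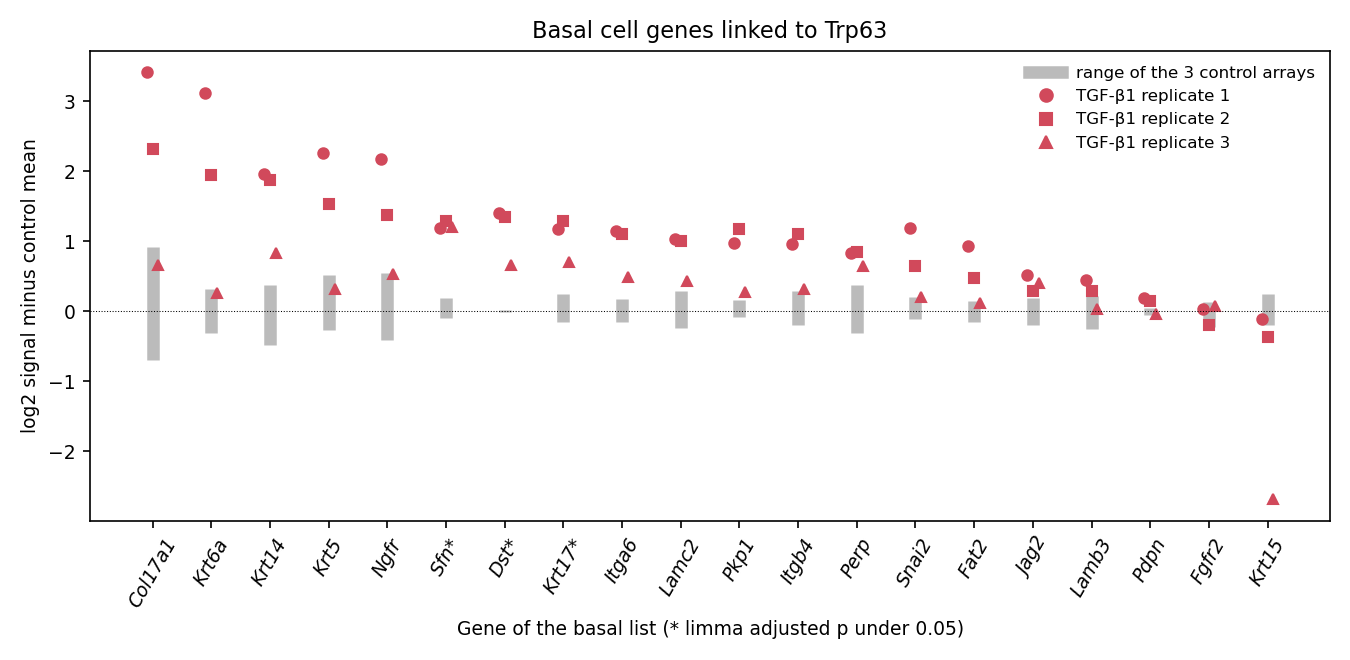
Log2 signal minus control mean (y axis, log2 units) for 20 basal cell genes linked to Trp63 (x axis, ordered by difference), with the 3 TGF-β1 arrays as red symbols, the range of the 3 controls as a grey bar and a star for a limma adjusted p under 0.05. Of these genes 18 have a mean above the controls, and the triangle of TGF-β1 replicate 3 lies below the other treated arrays for most, furthest in Krt15.

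Of the ETS factors, Elf3 had the largest difference downwards of all 10 members. It read 12.11, 11.52 and 12.08 in the controls and 11.08, 10.38 and 11.44 with TGF-β1. Every treated array was below every control, the highest treated value being replicate 3, but the spread within each group was wide. The difference was −0.94 (SE 0.29, 95% interval −1.64 to −0.24), or 1.91-fold lower, with a limma adjusted p of 0.152. Without TGF-β1 replicate 3 it was −1.17 and was called lower (limma adjusted p = 0.0400), and in the other fits that left out 1 array the adjusted p ran up to 0.398. It was −1.08 within slide row 1 and −0.64 between the arrays of row 2.

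Ehf, the closest relative of Elf3 here, had much smaller differences. Its brightest probe read 12.14, 12.17 and 12.13 in the controls and 11.95, 12.01 and 11.65 with TGF-β1. The groups did not overlap, and the difference was −0.28 (SE 0.13, 95% interval −0.58 to 0.02, limma adjusted p = 0.250). It was −0.17 without TGF-β1 replicate 3 and −0.42 when scaled by the 75th percentile. All 4 Ehf probes pointed the same way, from −0.20 to −0.35, but in the other 3 the groups overlapped. Elf3 minus Ehf on each array was −0.03, −0.65 and −0.04 in the controls and −0.87, −1.63 and −0.20 with TGF-β1, a shift of −0.66 (SE 0.46) with overlapping groups and an exact permutation p of 0.2, so a difference between the relatives was not shown.

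Among 22 other ETS genes, 16 were tested, 9 were higher and 7 lower, and the median was 0.06, or −0.06 when scaled by the 75th percentile and 0.03 without TGF-β1 replicate 3. Etv4, an ETS factor that acts with FGF signalling in lung tips, was the only one called, where 1.63% of all genes were called higher. It read 8.55, 8.66 and 8.36 in the controls and 9.62, 9.54 and 9.65 with TGF-β1, and rose by 1.08 (SE 0.12, limma adjusted p = 0.0107). Ets2 had the lowest value, −0.33 (SE 0.11, limma adjusted p = 0.154).

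Klf5, which keeps airway and other epithelia growing and differentiating, read 13.22, 13.16 and 12.87 in the controls and 12.73, 12.80 and 12.75 with TGF-β1. The treated arrays were tightly grouped (SD 0.03) and all below the controls, of which replicate 3 was close to them. The difference was −0.32 (SE 0.12, 95% interval −0.62 to −0.03, limma adjusted p = 0.198). It was −0.42 within slide row 1 and −0.12 between the arrays of row 2, and −0.50 when scaled by the 75th percentile. Klf4, a barrier factor of differentiated epithelium, read 12.07, 12.22 and 12.50 in the controls and 11.94, 11.92 and 12.67 with TGF-β1. Its highest value was TGF-β1 replicate 3, the groups overlapped, and the difference was −0.08 (SE 0.23, limma adjusted p = 0.849), or −0.33 without that array (limma adjusted p = 0.177) and −0.22 when scaled by the 75th percentile. Klf5 minus Klf4 shifted by −0.24 (SE 0.34) with overlapping groups and an exact permutation p of 0.5.

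Of 15 other KLF genes on the array, 11 were tested, of which 3 were higher and 8 lower, with a median of −0.05 and none called. The median was −0.23 when scaled by the 75th percentile, with 4 higher and 7 lower, and −0.16 without TGF-β1 replicate 3. Klf2 had the lowest value, reading 8.94, 8.36 and 7.72 in the controls and 7.11, 6.99 and 7.16 with TGF-β1, a difference of −1.25 (SE 0.29, limma adjusted p = 0.0888). Klf8 had the highest, 1.21 (SE 0.71, limma adjusted p = 0.338), and was well above background on 3 arrays. Barrier and simple epithelial genes linked to the KLF and ESE factors made a list of 20, of which 19 were tested. Of these, 12 were higher and 7 lower, with a median of 0.12, or −0.06 when scaled by the 75th percentile and 0.31 without TGF-β1 replicate 3. Lcn2, an iron-binding defence protein that Elf3 can drive, was the only one called, where 1.63% of all genes were called higher. It read 14.22, 13.94 and 13.78 in the controls and 15.23, 15.77 and 15.17 with TGF-β1, and rose by 1.41 (SE 0.20, limma adjusted p = 0.0221). Krt4, a keratin of layered epithelium, had the lowest value, −1.69 (SE 0.40, limma adjusted p = 0.0927), and passed without TGF-β1 replicate 3 (−1.92, limma adjusted p = 0.0357). Krt4 was well above background on 2 of the 3 TGF-β1 arrays.

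**Figure D4:**
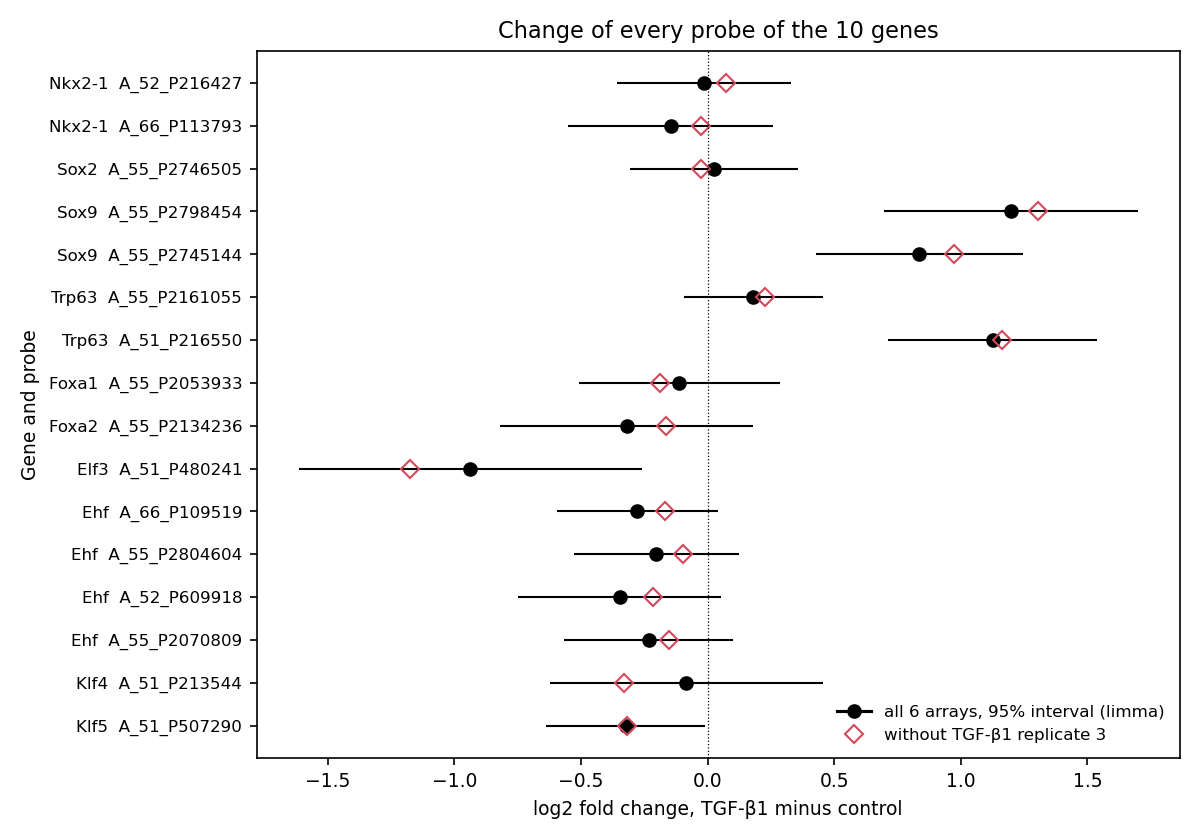
Log2 fold change, TGF-β1 minus control (x axis), of all 16 probes of the 10 genes (y axis), with 95% intervals from the limma fit over all probes and 6 arrays (black) and the value without TGF-β1 replicate 3 (red diamonds). The intervals of both Sox9 probes and 1 Trp63 probe lie above 0 and those of Elf3 and Klf5 below it.

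Other transcription factors of the airway and its cell types made a list of 43, of which 38 were tested. In that list 20 were higher and 18 lower, the median was 0.04, or −0.08 when scaled by the 75th percentile and −0.05 without TGF-β1 replicate 3, and 2 were called, both higher. One was Etv4, given above, and the other was Foxj1, the factor that switches on motile cilia, which read 7.56, 7.55 and 7.64 in the controls and 9.02, 9.09 and 9.05 with TGF-β1. Foxj1 rose by 1.47 (SE 0.10, limma adjusted p = 0.00239). The largest other difference upwards was Bnc1, a basal cell zinc finger protein, at 2.02 (SE 0.39, limma adjusted p = 0.0568). Bnc1 was well above background on 2 of the 3 control arrays. The lowest value was Gmnc, a regulator of cells with many cilia, at −0.84 (SE 0.38, limma adjusted p = 0.249). With all arrays, 1.63% of all genes were called higher. Without TGF-β1 replicate 3, 7 of the 38 were called higher and 2 lower, against 9.08% and 6.27% of all genes. Some genes stand in more than 1 list, such as Etv4, and the lists are no independent tests of each other.

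**Figure D5:**
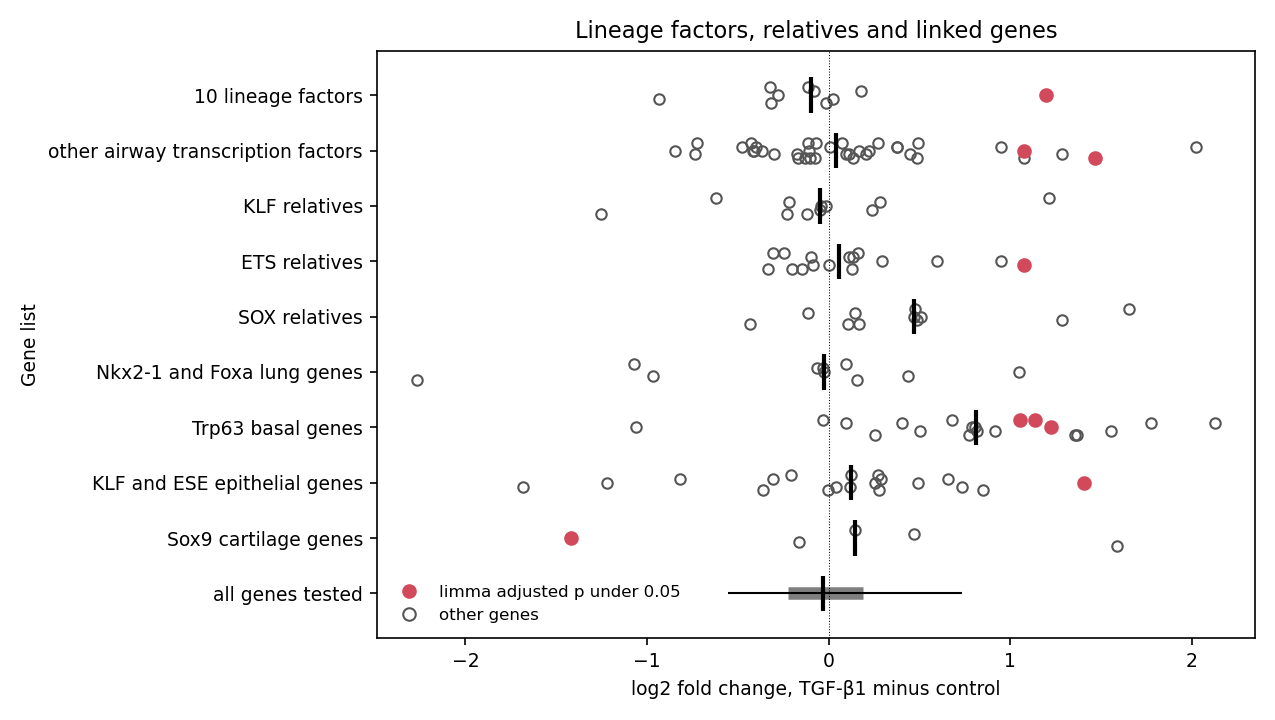
Log2 fold change, TGF-β1 minus control (x axis), of each gene tested in the 10 lineage factors and the 8 lists (y axis), with thick lines at the medians, red points for a limma adjusted p under 0.05, and all 14345 genes as median, quartiles (thick bar) and the 5th to 95th percentile (thin line). The values are those under quantile normalization, with medians of −0.10 for the lineage factors, −0.03 for all genes and 0.81 for the basal list.

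Markers of the cell types that such cultures can hold were read beside these values. All 7 general epithelial markers were well above background on all arrays, with 6 higher and none called. Of the club cell markers, 4 of 5 were tested, with 1 higher and 3 lower, and of the goblet cell markers, 2 of 5, with 1 each way. Muc5ac, Muc5b and Tff2, which define goblet cells, were well above background on no array. Ciliated cell markers had 5 of 6 tested and 4 higher, with Foxj1 called. Alveolar type 1 markers had 5 tested, 2 higher and 3 lower, and type 2 markers had 3 tested and 3 higher, with none called. Endothelial markers had 2 of 6 tested, both higher and neither called, and Cdh5, Kdr, Tek and Emcn were well above background on no array. Leukocyte markers had 3 of 6 tested, with 2 higher, 1 lower and none called, a log2 summed signal of 12.5 to 12.7 in the controls and 13.0 to 13.3 with TGF-β1, and Ptprc and Lyz2 well above background on no array. The part of leukocyte RNA in the members' values was not tested.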

How the data were processed

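RNA of 3 control and 3 TGF-β1 cultures was hybridized to 1-colour Agilent arrays, with the groups taken from the labels. The files deposited by the authors hold spot intensity on a linear scale from Agilent Feature Extraction 11.0.1.1, subtracted for background and corrected for trends within an array, with marks for spots well above background and no normalization between arrays. The study's methods then took log2 and normalized by quantiles, which was repeated here. The annotation of the array follows mm9, so positions of probes and genes are not given, and the promoter windows carry those of GRCm38.p6.

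Control spots and spots marked as uneven or as outliers were left out, and spots of a probe were averaged. RefSeq accessions were matched to symbols through the GRCm38.p6 table (32991 of 35883 such probes). A probe was kept when well above background on at least 3 of 6 arrays, and the brightest probe stood for a gene. limma 3.58.1 in R 4.3.3 compared the groups with no further term, with Benjamini-Hochberg adjustment over 14345 genes, or over 32460 probes for single probes, and the fits were tested on simulated data. Exact permutation tests were two-sided. For a gene that no array of a group read well above background, the fold is a bound against the level at which probes of those arrays become well above background. Brightness depends on the probe and the number of arrays limits the precision, so levels were compared between arrays only.

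The members, the lists and the tests were chosen with earlier results of these data known. All members and probes are named. Of each list, genes with an adjusted p under 0.05 and otherwise the largest difference in each direction are named, and marker lists are given by counts. Alternatives were 75th percentile scaling, normexp background (offset 50) on the median spot signal, other filters and probe rules, a trended robust prior, array weights, the methods' t-test, the replicate number or the slide row as a block, and each array left out. Slide row 1 alone was added after the data were seen. Protein comparisons that had been planned were not made.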

Additional observations from a re-analysis of the deposited data

How the results depend on the processing

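The limits are those of 3 arrays a group, of which TGF-β1 replicate 3 stands apart. Sox9 is the only member called with all arrays, on a dim spot, and its call was lost in 9 of the 19 other fits. It was positive in every fit, from 0.92 to 1.43. Elf3, Ehf, Klf5 and Foxa2 were negative and Trp63 positive in every fit. The signs of Nkx2-1, Sox2, Foxa1 and Klf4 were not settled: Sox2 was −0.13, Nkx2-1 −0.20, Foxa1 −0.38 and Klf4 −0.22 with 75th percentile scaling, Nkx2-1 was 0.013 in slide row 1 alone, and with 1 array left out Nkx2-1 ran from −0.096 to 0.080, Sox2 from −0.027 to 0.125, Foxa1 from −0.19 to 0.034 and Klf4 from −0.33 to 0.045.

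Of 14345 genes, 292 were called with all arrays. Counts below are of genes and members, then of the other airway factors, the KLF, ETS and SOX relatives, the lung, basal, epithelial and cartilage lists, which were 1 member and 2, 0, 1, 0, 0, 3, 1 and 1. Array weights gave 4982 genes and 3 members (Sox9, Elf3 and Klf5), then 18, 1, 5, 5, 2, 16, 11 and 3. Slide row 1 alone gave 3846 genes and 2 members (Sox9 and Klf5), then 13, 1, 3, 5, 2, 15, 10 and 3. The methods' t-test gave 2451 genes and 3 members (Sox9, Trp63 and Klf5) at its unadjusted threshold, then 12, 1, 4, 4, 2, 10, 4 and 3, and after Benjamini-Hochberg adjustment 9 genes and 0 members, then 1, 0, 0, 0, 0, 0, 0 and 0. A trended robust prior gave 507 genes and 1 member, then 6, 1, 3, 0, 0, 5, 1 and 0. With normexp background they were 430 genes and 1 member, then 5, 0, 2, 0, 0, 4, 1 and 0, and with 75th percentile scaling 329 and 1, then 4, 0, 2, 1, 0, 2, 1 and 1. Without a filter on dim probes they were 74 and 0, then 2, 0, 1, 0, 0, 1, 0 and 0. Detection on all 6 arrays gave 288 and 1, then 3, 0, 2, 0, 0, 3, 1 and 0. Counted by any called probe, 2 members (Sox9 and Trp63) passed. With the slide row as a block 395 genes and 0 members were called (Sox9 limma adjusted p = 0.0587), then 2, 0, 1, 0, 0, 3, 3 and 0.

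Same-numbered cultures did not all deviate together (correlations of −0.01, 0.33 and −0.05 across genes, in order of replicate number). These correlations rest on few arrays a group, so they cannot decide whether the numbers pair the cultures. A fit with the replicate number as a block called 103 genes and 0 members (Sox9 limma adjusted p = 0.0936), then 1, 0, 0, 0, 0, 1, 0 and 0.

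With 1 array left out, the genes called ran from 56 when TGF-β1 replicate 2 was left out to 2202 when replicate 3 was, the members from 0 to 2, the other airway factors from 1 to 9, the KLF relatives from 0 to 1, the ETS and SOX relatives from 0 to 3, the lung genes from 0 to 1, the basal genes from 1 to 15, the epithelial genes from 0 to 7 and the cartilage genes from 0 to 3. In each of these the highest count came without TGF-β1 replicate 3, shared for the KLF and lung lists with the fit without control replicate 3. The share of calls that were higher was 80.1% with all arrays, 48.3% with array weights, 51.6% in slide row 1 alone, 53.2% by the unadjusted t-test of the methods, 59.1% without TGF-β1 replicate 3 and 63.9% without control replicate 3. The cause of these shifts was not tested.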
